A study of Homo sapiens with 20 samples.

Results

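The 41 genes described here encode cyclins and their kinase CDK1, enzymes of DNA replication and proteins of the mitotic spindle, kinetochore and chromosomes. They were taken by gene symbol from a list of 41, and each matched 1 of the 60623 identifiers in the tables of pancreatic progenitors (PPs) and 1 of the 60624 in those of human islet-like organoids (hILOs). RNA-seq compared wild-type (WT) cells of the MEL1 INS-GFP/W human embryonic stem cell line, which carries GFP at an INS allele, with an ALKBH5 knockout of the same line (A5-KO). A5-KO was made with the nuclease Cpf1 and a pair of crRNAs to the first exon of ALKBH5 and grown from a picked colony, so all A5-KO libraries come from 1 edited line. ALKBH5 removes the m6A methyl mark from mRNA. PPs were differentiated from both lines with media that run to day 14 in the labels, then left untreated (0 h) or given actinomycin D (Act D) at 1 µg/ml for 1, 2 or 3 h. hILOs of both lines were not treated with Act D, and their media run to day 22 in the labels. Each genotype had 2 libraries of hILOs and 2 libraries of PPs at each time, 20 libraries in all. The study calls the Act D libraries of a group biological replicates. Neither the labels nor the study say so of these hILO libraries, where p-values measure only a spread that may be technical.

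Progression through the cell cycle is driven by cyclins that switch on cyclin-dependent kinases in turn. D-type cyclins respond to growth signals, cyclin E opens S phase and E2F1 switches on the genes of replication. Cyclin A and cyclin B with CDK1 then carry the cell into mitosis, where the Aurora and Polo kinases, the kinetochore and the spindle motors separate the chromosomes, and the APC/C ubiquitin ligase ends mitosis by marking cyclin B for destruction. PPs still divide in culture, whereas hormone-producing islet cells divide rarely. Most of these mRNAs are made only in part of the cycle, so in bulk RNA their level tends to follow the share of dividing cells.

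Short sequences of a few kinds are known in promoters of such genes. Mitotic promoters often hold a cell cycle homology region (CHR) close to the start site, with CCAAT boxes before it, and replication promoters often hold E2F sites. RefSeq promoter sequences (GRCh38.p14, 250 bases before to 50 after the start) were found for 31 of the 41 members. CCND1, CCND2, CCNE2, MCM4, MCM5, AURKA, TTK, UBE2C, BIRC5 and TPX2 had none. The letters searched, on both strands, were TTTGAA or TTCGAA for CHR, CCAAT, and TTTCCCGC, TTTCGCGC, TTTGCCGC or TTTGGCGC for E2F. Of the 21 promoters of mitotic members (cyclins A and B with CDK1 and all later roles), 16 held CHR letters (76.2%, against 16.6% of 27305 promoters), and 13 held both CHR and CCAAT (61.9%, against 6.58%). E2F letters were in 2 of those 21 (9.52%, against 3.33% of all promoters). Of the 10 promoters of replication members, cyclin E and E2F1, 8 held E2F letters (80%), 1 held CHR letters (10%) and 7 held CCAAT (70%, against 35.7% of all promoters and 81% of the mitotic ones). A match says only that the letters are present in the window.

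The stretches below show the arrangement in 6 mitotic members whose mRNA is described in the next paragraphs, with the CHR and CCAAT letters that begin within 100 bases before the start in capitals and 12 bases on either side. CDC20, CCNB2 and HMMR hold further CHR or CCAAT letters upstream of the stretch shown. ATTGG and TTCAAA are the same letters read on the other strand. Neighbouring matches in HMMR overlap or touch.
PLK1, chr16:23678804-23678877, plus strand: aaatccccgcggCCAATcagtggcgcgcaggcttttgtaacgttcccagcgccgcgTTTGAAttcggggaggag
KIF23, chr15:69414273-69414311, plus strand: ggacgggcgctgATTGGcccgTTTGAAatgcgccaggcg
KIF11, chr10:92593065-92593119, plus strand: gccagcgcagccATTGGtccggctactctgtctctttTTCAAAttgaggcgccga
CDC20, chr1:43358869-43358942, plus strand: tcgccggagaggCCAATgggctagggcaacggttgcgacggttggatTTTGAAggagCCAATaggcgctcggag
CCNB2, chr15:59105047-59105134, plus strand: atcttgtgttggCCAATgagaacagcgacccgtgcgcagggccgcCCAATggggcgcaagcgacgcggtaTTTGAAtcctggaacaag
HMMR, chr5:163460525-163460627, plus strand: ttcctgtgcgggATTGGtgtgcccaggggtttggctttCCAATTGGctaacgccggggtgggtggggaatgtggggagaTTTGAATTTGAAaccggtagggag

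In E2F1 and 3 replication members the capitals mark E2F letters before the start on either strand. MCM3 has a further match that reaches across the start and is not shown. In MCM6 each run of capitals is read as a match on both strands.
MCM6, chr2:135876510-135876607, minus strand: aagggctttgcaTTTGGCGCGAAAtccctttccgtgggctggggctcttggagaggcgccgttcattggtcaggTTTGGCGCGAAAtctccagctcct
MCM3, chr6:52284897-52284928, minus strand: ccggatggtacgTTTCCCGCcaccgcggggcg
PCNA, chr20:5126662-5126693, minus strand: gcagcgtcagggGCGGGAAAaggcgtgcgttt
E2F1, chr20:33686386-33686430, minus strand: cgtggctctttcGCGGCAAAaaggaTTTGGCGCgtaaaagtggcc

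The targeted gene was checked first. ALKBH5 stood at 149 and 172 CPM in WT PPs at 0 h against 19.1 and 18.8 CPM in A5-KO PPs (log2 difference -3.01 ± 0.10 SE, limma adjusted p = 1.5e-06). In hILOs it stood at 78.8 and 81.9 TPM in WT against 4.16 and 3.42 TPM in A5-KO (log2 -4.09, limma adjusted p = 0.0021). Under Act D the WT level was 48.3 and 33.7 CPM at 3 h. PP libraries held 30516384 to 35206514 reads, and listed TPM summed to between 887320 and 924887 in hILO libraries. INS and GCG were listed at 0 in PPs at 0 h. Summed hepatocyte markers (10 genes) were 1157 and 1217 CPM in WT against 1966 and 2002 CPM in A5-KO PPs at 0 h, and 20669 and 21021 TPM in WT against 36268 and 35998 TPM in A5-KO hILOs. Summed islet endocrine markers (12 genes) were 36606 and 38928 TPM in WT hILOs against 30844 and 29591 TPM in A5-KO hILOs. Most of this sum was CHGA, at 18470 and 20798 TPM in WT against 18215 and 17011 TPM in A5-KO, and INS, at 13033 and 12978 TPM against 7605 and 7606 TPM. Of the hepatocyte list, 6 of 9 genes tested were called higher in A5-KO PPs, and 3 higher and 3 lower of 10 in hILOs. Much of the hepatocyte sum in hILOs was TTR, at 7527 and 7550 TPM in WT against 18674 and 18749 TPM in A5-KO. Of the 12 genes of the endocrine list, INS, GCG, SST and PPY were called lower and SCG2 and NEUROD1 higher in A5-KO hILOs, with a median log2 difference of -0.29. Mesenchyme markers (10 genes) summed to 549 and 543 CPM in WT against 656 and 664 CPM in A5-KO PPs at 0 h, and to 268 and 262 TPM in WT against 169 and 162 TPM in A5-KO hILOs, where VIM, which was called lower, holds most of the sum. Of this list 4 of 8 genes tested were called higher in A5-KO PPs, and 3 higher and 1 lower of 5 in hILOs (median log2 difference 1.497). The part of these other cell types in the results below was not tested.

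NUSAP1, which encodes a spindle protein, had only 6 to 33 reads per PP library and did not pass the filter of a mean of 1 CPM, so 40 of 41 members were tested in PPs and all 41 in hILOs. In the annotation 86.8% of its exon bases are shared with other genes, 81.4% with 1 gene on the same strand. Shared exon bases were 47.9% for TYMS, 37.1% for CCNE2 and 23.6% for MCM2, all with genes of the opposite strand, and the sources used here do not say whether reads were counted by strand, so the values of these genes are less certain.

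The first comparison asked how much of the division programme is present in WT and A5-KO organoids. In hILOs the members were lower in A5-KO, across replication and mitosis alike. By limma on log2(TPM + 1), 22 of the 41 members were called lower (53.7%) and 0 higher, by at least 1.5-fold with an adjusted p below 0.05, while 4.09% of the 17300 genes tested were called lower and 2.70% higher. At an unadjusted p below 0.05, 36 members were lower and 0 higher, against 18.7% and 12.2% of all genes. The log2 difference was negative for 40 members (57.9% of all genes) and positive for 1 (42.1%), with a median of -0.73 against -0.06 over all genes tested. Both A5-KO libraries lay below both WT libraries for 38 members (92.7%, against 37.1% of all genes) and above them for CCND2 (24.3% of all genes), and CENPE and PLK1 overlapped. Fewer dividing cells and less of these mRNAs per cell cannot be told apart in bulk RNA. The number of calls rests on having 4 libraries. Leaving out any 1 of them leaves 1 library in a group, and far fewer members and genes were then called. The median stayed between -0.77 and -0.71. With no filter on low values, 3 members were called lower, against 0.533% of all genes.

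**Figure D1:**
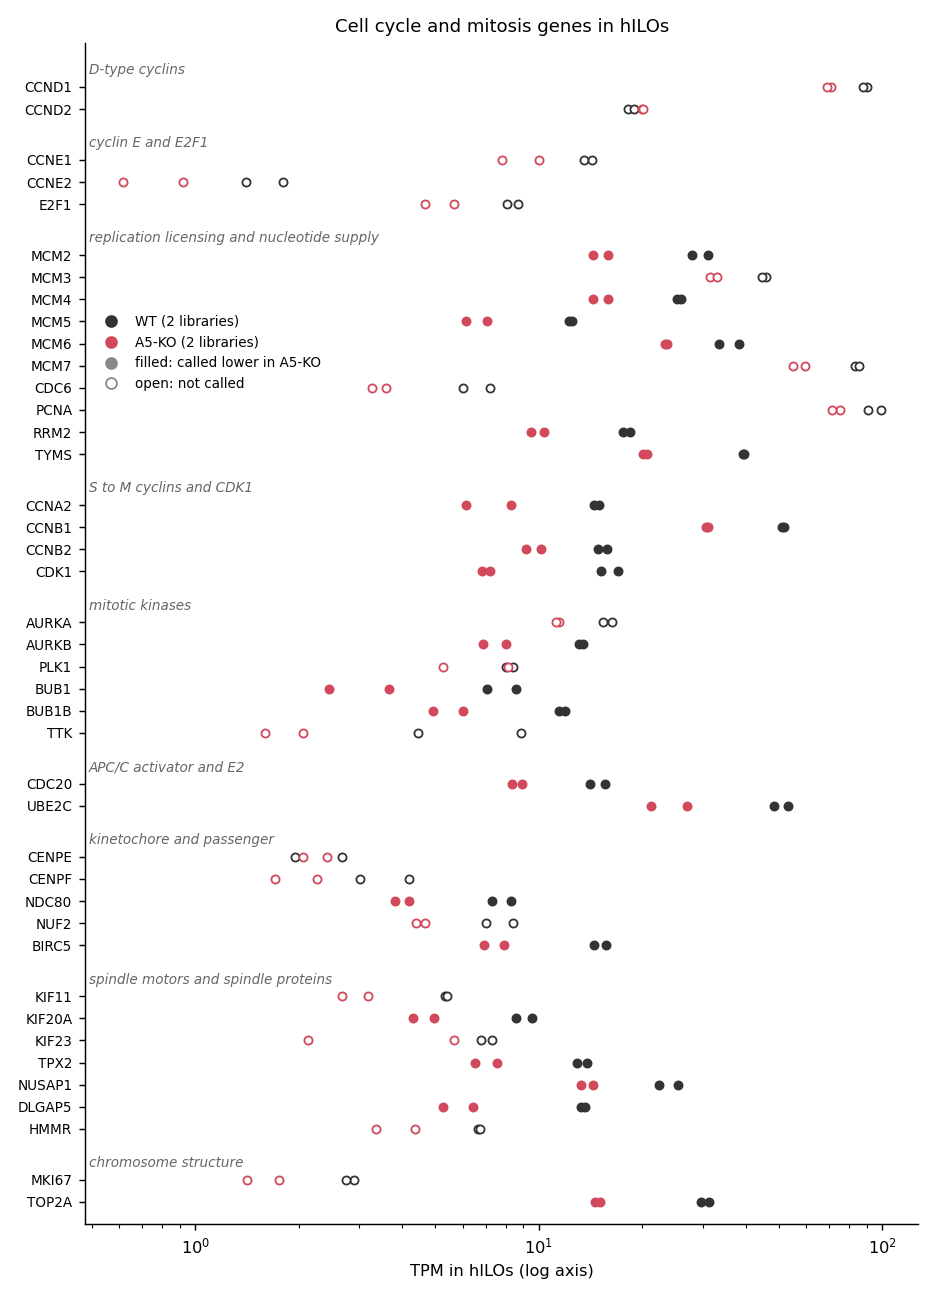
Level of the 41 members in each hILO library, in TPM on a log axis, by role; black points are the 2 WT libraries, red points the 2 A5-KO libraries, and filled points mark the 22 members called lower in A5-KO. The red points lie left of the black ones for 38 members, overlap with them for CENPE and PLK1, and lie to the right for CCND2.

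Among the regulators of G1, neither D-type cyclin was called. CCND1, which encodes cyclin D1, stood at 90.2 and 87.8 TPM in WT against 70.8 and 68.8 TPM in A5-KO hILOs (log2 -0.35 ± 0.05 SE, limma adjusted p = 0.024), a change under 1.5-fold. CCND2, which encodes cyclin D2, was 18.2 and 18.9 TPM in WT against 20.0 and 20.1 TPM in A5-KO (limma adjusted p = 0.40). CCNE1 and CCNE2, which encode the cyclins E, and E2F1 had log2 differences of -0.60, -0.56 and -0.61, with limma adjusted p between 0.069 and 0.19. E2F1 was 8.10 and 8.67 TPM in WT against 4.67 and 5.66 TPM in A5-KO. All 3 had separate libraries by genotype and none was called.

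Of the 10 members for replication licensing and nucleotide supply, 6 were called lower and 0 higher. TYMS, the enzyme that makes thymidylate, was 39.6 and 39.3 TPM in WT against 20.6 and 20.2 TPM in A5-KO (log2 -0.92 ± 0.06 SE, limma adjusted p = 0.0065). MCM2, a subunit of the replicative helicase, was 31.1 and 27.8 TPM in WT against 14.4 and 15.9 TPM in A5-KO (log2 -0.91 ± 0.10 SE, limma adjusted p = 0.015). The helicase subunits MCM4, MCM5 and MCM6 and RRM2, the small subunit of ribonucleotide reductase, were called with log2 differences from -0.81 to -0.59. The subunits MCM3 and MCM7 and PCNA, the sliding clamp of the polymerase, had limma adjusted p of 0.021, 0.016 and 0.040 and changes under 1.5-fold. CDC6, which loads the helicase, was 7.21 and 6.00 TPM in WT against 3.27 and 3.59 TPM in A5-KO (limma adjusted p = 0.051) and was not called.

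The 4 members that drive the cell from S phase to mitosis were all called lower. CDK1, the mitotic kinase, was 17.0 and 15.2 TPM in WT against 7.19 and 6.82 TPM in A5-KO (log2 -1.09 ± 0.11 SE, limma adjusted p = 0.013). CCNB1, which encodes its partner cyclin B1, was 51.1 and 51.8 TPM in WT against 30.7 and 31.1 TPM in A5-KO (log2 -0.72 ± 0.06 SE, limma adjusted p = 0.008). CCNA2 (cyclin A2) was 14.5 to 15.0 TPM in WT against 6.13 to 8.29 TPM in A5-KO, and CCNB2 (cyclin B2) 14.8 to 15.8 and 9.14 to 10.2 TPM. In each of the 4 genes the gap between genotypes exceeded the gap within them.

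The mitotic kinases differed among themselves in hILOs. BUB1B and BUB1, of the spindle checkpoint, and AURKB, the kinase of the chromosomal passenger complex, were called lower, with log2 differences of -0.98 ± 0.14, -1.13 ± 0.21 and -0.76 ± 0.12 (SE). BUB1B was 11.4 and 11.9 TPM in WT against 6.01 and 4.91 TPM in A5-KO. AURKA, which acts at the spindle poles, was 15.4 and 16.3 TPM in WT against 11.4 and 11.2 TPM in A5-KO, with a limma adjusted p of 0.049 and a change under 1.5-fold. PLK1, the Polo kinase, was 8.03 and 8.42 TPM in WT against 8.15 and 5.26 TPM in A5-KO, so its libraries overlapped (limma adjusted p = 0.43). TTK, the checkpoint kinase MPS1, was 4.45 and 8.84 TPM in WT against 2.06 and 1.59 TPM in A5-KO. Its log2 difference of -1.38 ± 0.34 SE was larger than that of any other member, but its WT libraries lay far apart and its limma adjusted p was 0.074.

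Both members of the APC/C pathway were called lower. UBE2C, the E2 enzyme that serves the APC/C, was 48.4 and 53.0 TPM in WT against 27.0 and 21.2 TPM in A5-KO (log2 -1.05 ± 0.14 SE, limma adjusted p = 0.021). CDC20, its activator, was 15.6 and 14.1 TPM in WT against 8.34 and 8.95 TPM in A5-KO. At the kinetochore, NDC80 and the passenger protein gene BIRC5 (survivin) were called of 5 members. NDC80 was 7.29 and 8.27 TPM in WT against 3.81 and 4.20 TPM in A5-KO. Its partner NUF2 was 8.42 and 7.01 TPM in WT against 4.64 and 4.38 TPM in A5-KO (limma adjusted p = 0.063). CENPE, a kinetochore motor, was 1.95 and 2.67 TPM in WT against 2.41 and 2.05 TPM in A5-KO, with a log2 difference of -0.03 ± 0.21 SE. CENPF, a protein of the outer kinetochore, had 4.19 and 3.01 TPM in WT against 1.71 and 2.26 TPM in A5-KO and was not called.

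Of the 7 spindle members 4 were called lower: KIF20A, a motor of cytokinesis, TPX2, which activates Aurora A, NUSAP1 and DLGAP5, which bundles microtubules. DLGAP5 was 13.6 and 13.3 TPM in WT against 5.26 and 6.42 TPM in A5-KO (log2 -1.08 ± 0.13 SE, limma adjusted p = 0.019). NUSAP1 was 22.4 and 25.4 TPM in WT against 14.3 and 13.3 TPM in A5-KO. KIF23, a motor of the midbody, was 7.30 and 6.79 TPM in WT against 2.12 and 5.68 TPM in A5-KO, and the spread of the A5-KO pair left it uncalled (limma adjusted p = 0.25). KIF11, the motor that separates the spindle poles, and HMMR, a spindle protein, had log2 differences of -0.70 and -0.67 and limma adjusted p of 0.060 and 0.074. TOP2A, which untangles chromosomes, was 29.6 and 31.3 TPM in WT against 14.6 and 15.1 TPM in A5-KO (log2 -0.99 ± 0.08 SE, limma adjusted p = 0.008). MKI67, the Ki-67 antigen, was 2.90 and 2.75 TPM in WT against 1.41 and 1.75 TPM in A5-KO and was not called (limma adjusted p = 0.12). On log2(TPM + 1) the change of such low genes is understated.

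In PPs at 0 h no such fall was measured. By limma on log2(CPM + 1), 0 of the 40 members tested were called in either direction, while 1.13% of the 13911 genes tested were called lower and 1.57% higher. DESeq2 and edgeR on the reads recovered from the CPM also called 0 members. At an unadjusted p below 0.05, 2 members were lower (8.29% of all genes) and 10 higher (11.0%). The log2 difference was positive for 32 members (56.5% of all genes) and negative for 8 (43.5%), with a median of 0.13 against 0.03 over all genes. Both A5-KO libraries lay above both WT libraries for 20 members (50.0%, against 29.0% of all genes) and below them for 5 (12.5%, against 20.8%). With median-of-ratios scaling these counts of members were 21 and 7, but the shares of all genes under that scaling were not counted. The median difference of the members was then 0.09, against -0.01 over all genes.

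The D-type cyclins lay lower in A5-KO PPs. CCND1 was 1519 and 1523 CPM in WT against 1116 and 1141 CPM in A5-KO (log2 -0.43 ± 0.06 SE, limma adjusted p = 0.004), which is under 1.5-fold. CCND2 was 148 and 143 CPM in WT against 121 and 109 CPM in A5-KO (log2 -0.34 ± 0.08 SE, limma adjusted p = 0.053). The libraries of both genes were separate by genotype. CCNE1, TYMS and NUF2 were the other members whose A5-KO libraries both lay below the WT ones.

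The replication members mostly lay higher in A5-KO PPs, none of them by a called difference. MCM6 was 82.2 and 79.9 CPM in WT against 102 and 98.8 CPM in A5-KO (log2 0.30 ± 0.08 SE, limma adjusted p = 0.072). PCNA was 159 and 151 CPM in WT against 184 and 179 CPM in A5-KO, and RRM2 119 and 121 CPM and 143 and 138 CPM (limma adjusted p = 0.14 for each). In these 3 genes no A5-KO library overlapped with a WT one. Among mitotic members, CDK1 was 129 and 121 CPM in WT against 149 and 133 CPM in A5-KO (log2 0.17 ± 0.09 SE), PLK1 76.2 and 62.4 CPM and 88.9 and 78.3 CPM (log2 0.27 ± 0.11 SE), and TOP2A 454 and 452 CPM and 472 and 440 CPM (log2 0.01 ± 0.07 SE). Their limma adjusted p were 0.32, 0.23 and 0.96.

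Set side by side, the stages differed in sign for most members. The log2 difference was positive in PPs and negative in hILOs for 32 of the 40 members tested at both (33.3% of the 12729 genes tested at both), negative at both for 7 (26.9%), and negative in PPs and positive in hILOs for CCND2. For 19 members both A5-KO libraries lay above both WT libraries in PPs and below both in hILOs (10.7% of those genes), among them 6 MCM genes, PCNA, RRM2, CDK1, CCNA2, CCNB2, CDC20 and KIF11. CCND1, CCNE1, TYMS and NUF2 lay below at both stages (8.86%). The stages were deposited in different units and normalized separately, and the difference between them was not tested. Within a library, the median member ranked at percentile 90.3 to 91.4 of the genes listed above 0 in PPs at 0 h (on CPM per kilobase of exon), at 71.4 and 71.7 in WT hILOs and at 63.7 and 63.4 in A5-KO hILOs (on TPM).

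**Figure D2:**
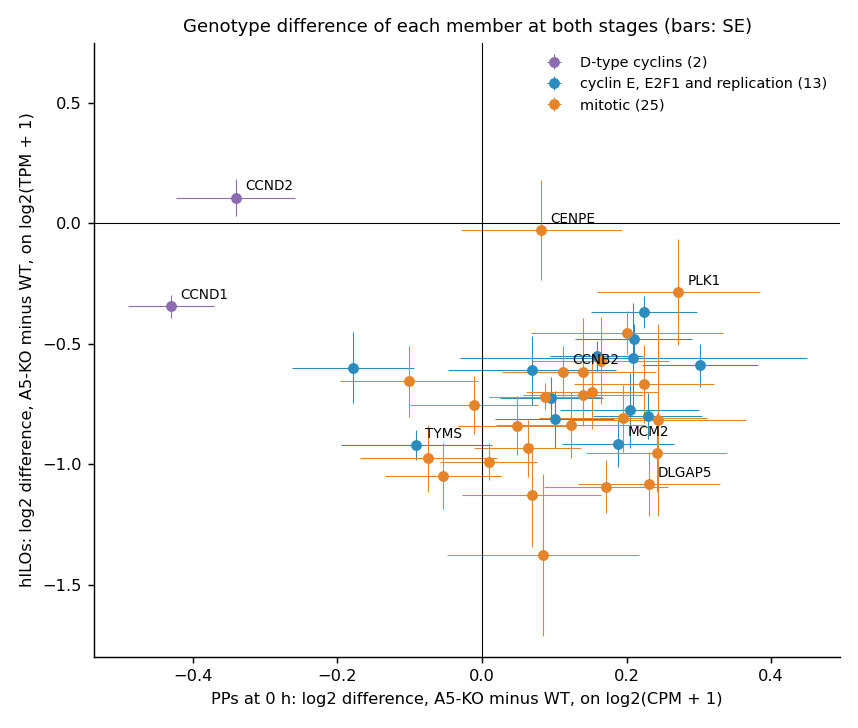
Difference between A5-KO and WT of the 40 members tested at both stages, with that in PPs at 0 h on the x axis (log2(CPM + 1)) and that in hILOs on the y axis (log2(TPM + 1)); bars are SE and colours mark role. 32 points lie right of and below the zero lines, with CCND2 alone in the upper left.

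The Act D series asked how fast the mRNAs were lost once transcription was blocked. The values are shares of each library's total, so a slope of log2(CPM + 0.1) per hour is relative to the other mRNAs of the library and not an absolute decay rate. In WT PPs the members showed little net slope. 0 of 40 members were called in either direction by limma, while 0.110% of the 13620 genes tested were called lower and 0.132% higher, and edgeR on the recovered reads also called 0. At an unadjusted p below 0.05, 5 members were lower (AURKA, CCND2, KIF11, KIF23 and TTK, 12.5%) and 0 higher, against 11.4% and 1.95% of all genes. The slope was negative for 33 members (62.9% of all genes), and the median slope was -0.05 per hour, against -0.03 over all genes. WT levels did not follow a straight line. The median change of the members from 0 h was -0.18 at 1 h, -0.28 at 2 h and -0.16 at 3 h, and 15 members were higher in both libraries at 3 h than in both at 2 h (25.2% of all genes), while 6 were lower (14.1%). With only 0 and 1 h in the WT fit 13 members were called lower (25.5% of all genes), and with only 0 and 3 h 8 were (2199 of 13740 genes).

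In A5-KO PPs the mRNAs of most members declined relative to the library total. 26 of 40 members were called lower (65.0%) and TYMS alone higher, while 37.1% of the 13620 genes tested were called lower and 7.44% higher. At an unadjusted p below 0.05, 29 were lower and 1 higher (41.4% and 10.3% of all genes), and slopes were negative for 37 and positive for 3 (66.2% and 33.8%). With median-of-ratios scaling the members' calls were 18 lower and 3 higher (CCND1, MCM2 and TYMS), and those of all genes 26.8% and 23.4%. That scaling moved the median slope of all genes from -0.08 to 0.02 and the members' median from -0.19 to -0.09 per hour, so the members' median lay below that of all genes under both. The median change of the members from 0 h was -0.29 at 1 h, -0.49 at 2 h and -0.55 at 3 h, against -0.15, -0.25 and -0.25 over all genes. Both libraries of 1 h already lay below both of 0 h for 31 members in A5-KO (47.2% of all genes) and 26 in WT (48.8%). By 3 h this held for 36 members in A5-KO (55.3%) and 25 in WT (40.7%).

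**Figure D3:**
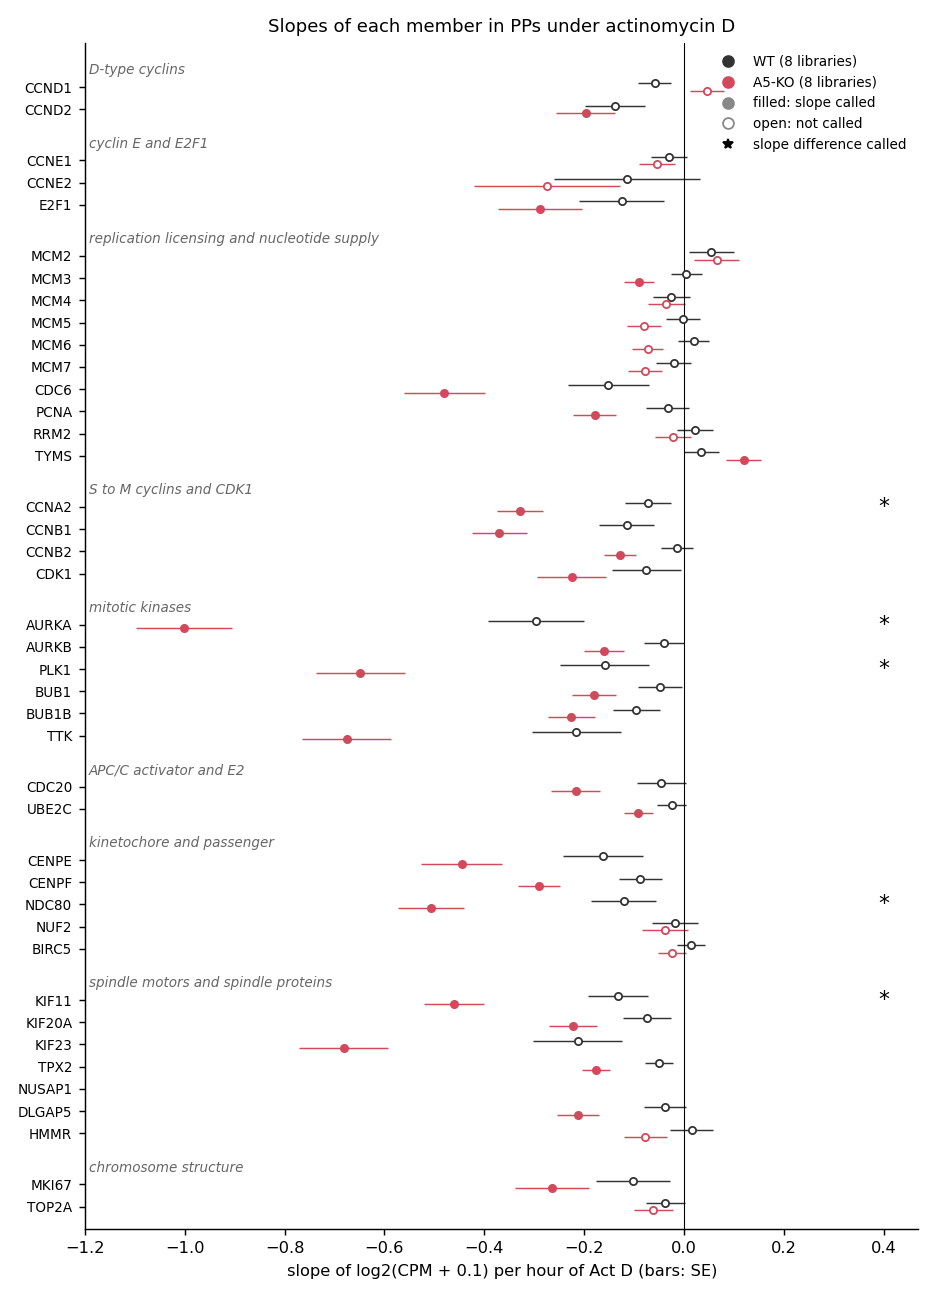
Slope of log2(CPM + 0.1) per hour of Act D for each member, by role, in WT (black) and A5-KO (red) PPs; bars are SE, filled points mark called slopes and stars the 5 members whose slopes differed between genotypes. No WT point is filled, and 27 A5-KO points are, with AURKA at -1.002 per hour the lowest; NUSAP1 was not tested in PPs.

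The calls in A5-KO lay mainly among the mitotic members, of which 21 of 25 tested were called lower (37.1% of all genes). They included all 6 mitotic kinases and all 4 cyclin A, cyclin B and CDK1 genes. NUF2, BIRC5, HMMR and TOP2A were the 4 uncalled. AURKA had a slope of -1.002 ± 0.10 SE per hour (limma adjusted p = 8.8e-06), which corresponds to a half-life of 0.998 h relative to the library total. TTK and KIF23 each had -0.68 ± 0.09 SE, PLK1 -0.65 ± 0.09, NDC80 -0.51 ± 0.07, KIF11 -0.46 ± 0.06 and CENPE -0.45 ± 0.08 (SE). Of the 10 replication members 3 were called lower, a share near the 37.1% of all genes. These were CDC6 (-0.48 ± 0.08 SE), PCNA (-0.18 ± 0.04 SE) and MCM3 (-0.09 ± 0.03 SE). The median slope of the 10 was -0.075 per hour, against -0.081 over all genes. MCM3 and UBE2C had slopes of 0.0093 and 0.0078 with median-of-ratios scaling and so changed sign. TYMS was 29.2 and 30.3 CPM at 0 h and 36.5 and 40.2 CPM at 3 h (slope 0.12 ± 0.04 SE, limma adjusted p = 0.011).

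The slopes of 5 members differed between genotypes, all lower in A5-KO and all mitotic: AURKA, PLK1, NDC80, KIF11 and CCNA2. These were 12.5% of the members tested, while 2.61% of all genes were called lower and 0.0661% higher. At an unadjusted p below 0.05, 19 members were lower (47.5%) and 1 higher, against 20.0% and 2.36% of all genes. The difference was negative for 37 members (68.4% of all genes), with a median of -0.13 against -0.07 per hour. KIF23 and TTK lay just outside the threshold, with limma adjusted p of 0.054 and 0.056, and PLK1 and KIF11 just inside it at 0.049. These 5 calls depended on the processing and on single libraries. No member, and no other gene in the lower direction, was called without the 3 h libraries or without replicate 2 at 2 h in both genotypes. With median-of-ratios scaling 1 was called (AURKA, 0.764% of all genes), and with only 0 and 3 h 19 were (19.9%). Leaving out WT replicate 1 at 0 h or at 2 h gave 11 and 12 calls (10.6% and 9.97% of all genes). Leaving out any other library gave 0 to 2 (0.00% to 0.572%).

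AURKA (chr20:56369389-56392337, GRCh38) was 85.0 and 66.1 CPM in WT at 0 h, 36.8 and 40.5 CPM at 1 h, 23.8 and 41.0 CPM at 2 h and 35.8 and 45.8 CPM at 3 h. In A5-KO it was 95.2 and 78.2 CPM at 0 h, 39.3 and 39.8 CPM at 1 h, 21.2 and 18.4 CPM at 2 h and 11.6 and 9.80 CPM at 3 h. The genotypes overlapped at 1 h, and both A5-KO libraries lay below both WT libraries at 2 and 3 h. The difference in slope was -0.71 ± 0.14 SE per hour (limma adjusted p = 0.036).

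PLK1 (chr16:23677656-23690367), whose CHR and CCAAT letters are printed above, was 76.2 and 62.4 CPM in WT at 0 h, 49.6 and 52.2 CPM at 1 h, 33.7 and 79.1 CPM at 2 h and 49.9 and 45.2 CPM at 3 h. In A5-KO it was 88.9 and 78.3 CPM at 0 h, 65.8 and 66.8 CPM at 1 h, 36.4 and 28.4 CPM at 2 h and 27.4 and 20.4 CPM at 3 h. At 1 h the A5-KO libraries were the higher ones and at 3 h the lower ones, and the WT pair at 2 h was wide. The difference in slope was -0.49 ± 0.13 SE per hour (limma adjusted p = 0.049), and with only 0 and 1 h it was 0.11.

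NDC80 (chr18:2571557-2616635) was 30.1 and 29.2 CPM in WT at 0 h, 24.1 and 26.1 CPM at 1 h, 16.8 and 18.4 CPM at 2 h and 23.3 and 27.4 CPM at 3 h. In A5-KO it was 37.0 and 31.4 CPM at 0 h, 23.4 and 25.0 CPM at 1 h, 17.0 and 17.2 CPM at 2 h and 12.9 and 10.8 CPM at 3 h. Both genotypes were near each other at 2 h, and only at 3 h did the A5-KO libraries lie below (difference in slope -0.39 ± 0.09 SE, limma adjusted p = 0.045).

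KIF11 (chr10:92574105-92655395) was 73.6 and 73.9 CPM in WT at 0 h, 53.8 and 55.1 CPM at 1 h, 43.2 and 49.6 CPM at 2 h and 59.2 and 55.4 CPM at 3 h. In A5-KO it was 87.4 and 77.0 CPM at 0 h, 51.3 and 44.3 CPM at 1 h, 35.0 and 41.1 CPM at 2 h and 31.9 and 29.2 CPM at 3 h. A5-KO started above WT and lay below it from 1 h on, in both libraries each time (difference in slope -0.33 ± 0.09 SE, limma adjusted p = 0.049).

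CCNA2 (chr4:121816444-121823883) was 74.1 and 72.8 CPM in WT against 94.3 and 80.3 CPM in A5-KO before Act D. At 1 h it was 63.2 and 60.2 CPM in WT against 64.6 and 58.7 CPM in A5-KO, and at 2 h 49.3 and 66.2 CPM and 56.0 and 50.6 CPM. At 3 h it was 66.8 and 61.0 CPM in WT against 43.6 and 41.8 CPM in A5-KO. The libraries overlapped at 1 and 2 h and separated at 3 h (difference in slope -0.26 ± 0.07 SE, limma adjusted p = 0.048).

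At 3 h the A5-KO libraries of 28 of the 40 members both lay under the WT libraries (46.0% of all genes) and those of 5 lay above (12.5%, against 19.9%): MCM2, MCM4, RRM2, TYMS and BIRC5. At 2 h, 20 were lower (50.0%, against 37.5%) and 3 higher (19.5% of all genes), and at 1 h 11 were lower (27.5%, against 23.3%) and 10 higher (25.0%, against 32.6%). Between 2 and 3 h, 19 members were lower at the later time in A5-KO (47.5%, against 34.7%), most of them mitotic. Another 10 were higher (25.0%), a share near the 25.2% of all genes. These 10 were MCM2, MCM3, MCM4, MCM5, MCM7, RRM2, TYMS, E2F1 and the mitotic members BIRC5 and MKI67. In A5-KO, MCM2 went from 117 and 111 CPM at 2 h to 130 and 123 CPM at 3 h.

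**Figure D4:**
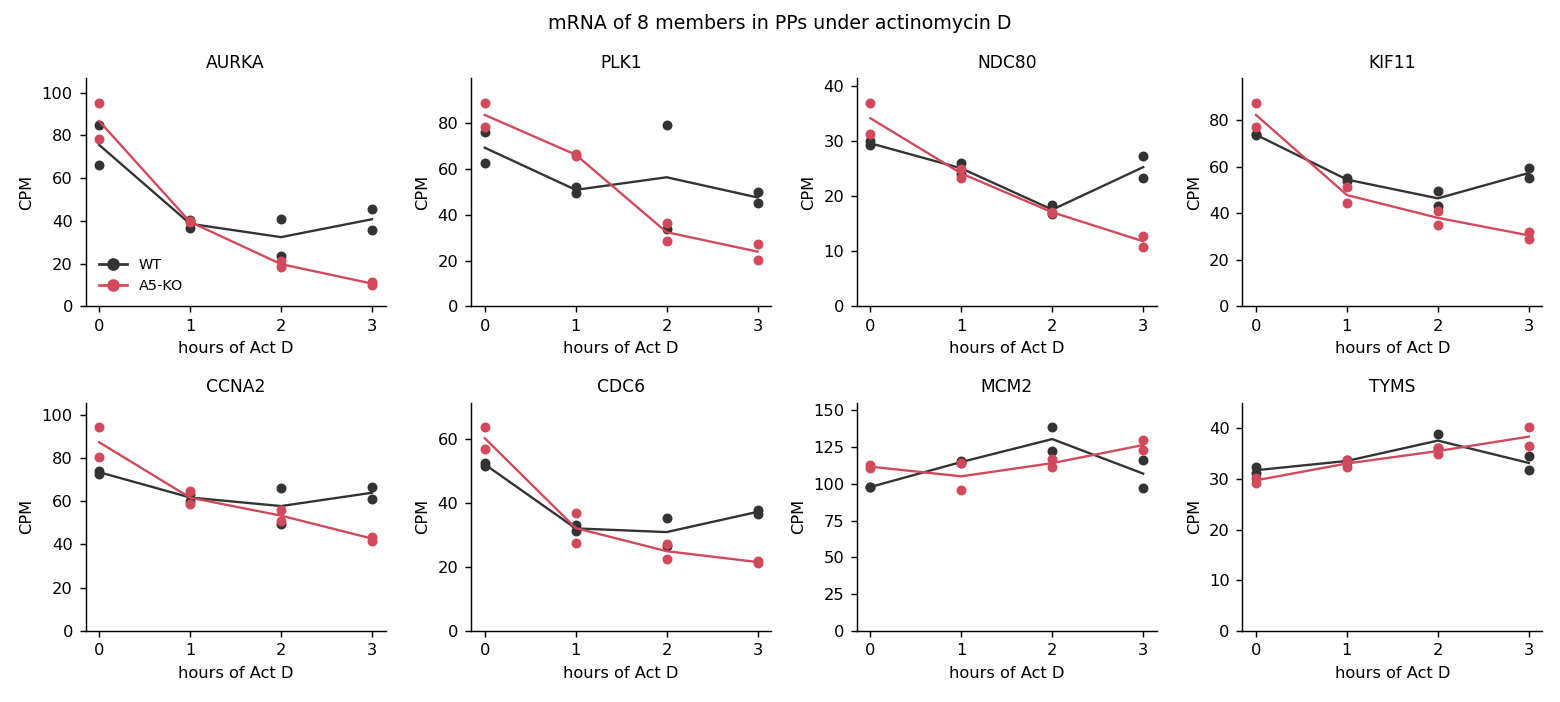
Level of 8 members in each PP library, in CPM, against hours of Act D; points are libraries and lines join the means of 2 libraries in WT (black) and A5-KO (red). In AURKA, PLK1, NDC80, KIF11, CCNA2 and CDC6 the red points at 3 h lie below the black ones, while in MCM2 and TYMS they lie above.

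At 2 h the WT libraries stood apart. Replicate 2 was higher than its partner for 32 of the 40 members, with a median absolute difference of 0.19 on the log2 scale (0.25 over all genes). Other mRNAs were high in it too. The sum of 10 transcription factor genes that mark PPs was 1390 and 1095 CPM in WT at 0 h, 373 and 427 CPM at 1 h, 247 and 573 CPM at 2 h and 456 and 462 CPM at 3 h. In A5-KO it was 1156 and 1046 CPM at 0 h, 418 and 392 CPM at 1 h, 198 and 192 CPM at 2 h and 135 and 117 CPM at 3 h. This sum, like the members' levels, was higher in WT at 3 h than in the first library at 2 h, and its part in the members' slopes was not tested.

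Mitotic and replication mRNAs changed in different proportion. The summed level of the 26 mitotic members was 2522 and 2396 CPM in WT PPs at 0 h and 2119 and 2223 CPM at 3 h, a mean of 88.3% of the start. In A5-KO it was 2757 and 2509 CPM at 0 h and 1700 and 1620 CPM at 3 h, 63.0% of the start. The summed replication members were at 97.3% of the start in WT and 87.1% in A5-KO at 3 h. The ratio of mitotic to replication sums was thus 1.84 ± 0.06 (SD, n = 2) at 0 h and 1.67 ± 0.05 at 3 h in WT, and 1.74 ± 0.07 and 1.26 ± 0.0085 in A5-KO. Both A5-KO ratios lay below both WT ratios at 0, 1 and 3 h, and they overlapped at 2 h. At 0 h the gap between genotypes was smaller than the gaps within them (1.883 and 1.796 in WT against 1.792 and 1.695 in A5-KO). In hILOs the ratio was 0.941 and 0.977 in WT and 0.788 and 0.787 in A5-KO, where the mitotic sum was 53.8% and the replication sum 65.5% of the WT mean. These sums are a description and were not tested, since the members were chosen with results known. That choice bears also on the counts of called members set against all genes.

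**Figure D5:**
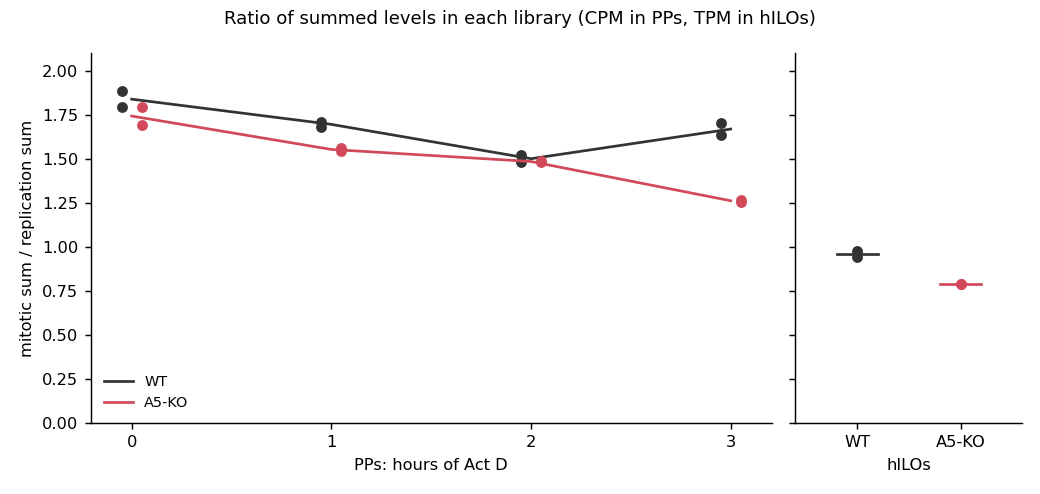
Ratio of the summed level of the 26 mitotic members to that of the 10 replication members in each library, from CPM in PPs by hours of Act D (left, lines join means) and from TPM in hILOs (right, bars are means); black is WT and red A5-KO. The A5-KO points lie below the WT points at 0 h (by less than the spread within a genotype), at 1 and 3 h and in hILOs. They overlap at 2 h. The levels of the left and right plots are not comparable because the units differ.

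Other genes of the cell cycle were counted from lists of 109 CDK inhibitors, regulators of E2F, further cyclins and kinases, replication and mitosis genes, of which 104 were tested at each stage. In hILOs 19 were called lower and 1 higher (4.09% and 2.70% of all genes), with a median log2 difference of -0.44 against -0.06. Among them, SMC2, a condensin subunit (log2 -1.05 ± 0.11 SE), MAD2L1, of the spindle checkpoint (-1.02 ± 0.10), PTTG1, the securin that holds back separase (-0.96 ± 0.08), and CKS1B, a subunit of CDK complexes (-0.70 ± 0.06), were lower. CCNA1, a cyclin A known from the germ line, was higher (1.65 ± 0.18 SE). In PPs at 0 h only CDKN2B, which encodes the CDK4 and CDK6 inhibitor p15, was called, at -1.01 ± 0.10 SE (limma adjusted p = 0.00049), and 76 of the 104 had positive differences (56.5% of all genes).

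Under Act D, 58 of the 104 were called lower and 2 higher in A5-KO (37.1% and 7.44% of all genes), with a median slope of -0.18 per hour against -0.08. By list, 15 of 31 other replication genes and 24 of 38 other mitosis genes tested were called lower. The slopes of 13 differed between genotypes, all lower in A5-KO (2.61% of all genes), but no gene at all was called lower with no filter on low values, without replicate 2 at 2 h, or in 10 of the 16 fits that left out 1 library. They include CDKN1B, which encodes the CDK inhibitor p27 (-0.53 ± 0.11 SE per hour), the repressor E2F6 (-0.76 ± 0.19), the phosphatase gene CDC25A and the kinase gene WEE1, which act on CDKs in opposite ways (-0.49 ± 0.12 and -0.48 ± 0.12), DBF4, which activates the replication kinase CDC7 (-0.60 ± 0.13), and the mitotic kinesin KIF18A (-0.72 ± 0.14). Genes that brake the cycle and genes that drive it were both among the 13. So were 4 of the 31 other replication genes and 5 of the 38 other mitosis genes. Their median slope differences were -0.13 and -0.11 per hour, against -0.07 over all genes. The restriction to mitotic genes seen among the 5 members thus did not extend to these wider lists.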

How the data were processed

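PPs and hILOs of WT and A5-KO cells were profiled by RNA-seq, 2 libraries per condition. For hILOs the authors trimmed reads, aligned them to GRCh38 with HISAT2 (version 2.1.0 in the submitters' processing notes), quantified transcripts with StringTie and deposited TPM per gene. For PPs the authors deposited CPM per gene with spike-ins removed; the read counter and annotation release are not given in the sources used here. All CPM values were whole multiples of what 1 read is worth (tolerance 0.01 reads), which gave the read totals. TPM keeps no depth, so the precision in hILOs rests on 2 libraries per group.

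Groups, times and replicate numbers came from the labels. The members and gene lists were chosen with earlier results of these data known. Genotypes were compared with limma (3.58.1, R 4.3.3, trend) on log2(CPM + 1) or log2(TPM + 1) for genes whose mean was 1 or more, called at a change over 1.5-fold with p, adjusted over all genes by Benjamini-Hochberg, below 0.05. Slopes were fitted with limma on log2(CPM + 0.1) over all 16 PP libraries, an intercept and slope per genotype, called at an adjusted p below 0.05. limma was used because the deposited units are not counts. All members may be named, and of each list of other cell cycle genes at most 4, those with the largest change among called genes whose mean reached 10 in either genotype (for slopes, at 0 h); ALKBH5 was added as the target. Cell type markers are described by summed levels. Promoters are from RefSeq, and exon overlaps from GENCODE on GRCh38, the build of the files. The limma fits were tested on simulated data.

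Alternatives were another pseudocount, no filter, median-of-ratios scaling, the replicate number as a block, each library left out, fewer time points, all PP libraries in 1 fit, sums per exon length, and edgeR (4.0.16) or DESeq2 (1.42.0) on the recovered reads. The fits with 0, 1 and 2 h only and without replicate 2 at 2 h were chosen after seeing the data. Conversion by spike-ins was not repeated.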

Additional observations from a re-analysis of the deposited data

Results flagged for a closer look

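The slopes under Act D differed between WT and A5-KO PPs by the test of the difference itself in limma (adjusted p below 0.05) for 5 members. The A5-KO slope minus the WT slope was -0.71 per hour for AURKA, -0.49 for PLK1, -0.39 for NDC80, -0.33 for KIF11 and -0.26 for CCNA2. It differed also for these other cell cycle genes: FAM83D, a spindle protein gene (-0.92), E2F6 (-0.76), KIF18A (-0.72), DBF4 (-0.60), CDKN1B (-0.53), CDC25A (-0.49), WEE1 (-0.48), the passenger complex gene CDCA8 (-0.37), the condensin gene NCAPG (-0.33), and MCM10, ORC2 and RFC4 of the replication machinery (-0.31, -0.29 and -0.29). None of these calls, of members or others, was made with no filter on low values, with the replicate block, without replicate 2 at 2 h, or in 10 of the 16 fits that left out 1 library.

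For 19 members both A5-KO libraries lay above both WT libraries in PPs at 0 h and below both in hILOs (10.7% of the 12729 genes tested at both stages). The genotype difference of these members thus had opposite signs in the separate libraries of the stages. That difference between the stages was not tested.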

How the results depend on the processing

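The 22 members called lower in hILOs (4.09% of all genes) became 3 with no filter on low values (0.533%) and 10 with a replicate block (2.23%). Median-of-ratios scaling gave 19 (3.61%) and the other pseudocount 23 (4.13%). Leaving out 1 library leaves 1 library in a group. Far fewer members and genes were then called, and the members' median log2 difference stayed between -0.77 and -0.71. In PPs at 0 h no alternative called a member. For the WT slope, 8 members were called lower with only 0 and 3 h (2199 of 13740 genes), 13 with only 0 and 1 h (25.5% of all genes), and 12 lower and 1 higher with 0, 1 and 2 h (19.9% and 3.21%). For the A5-KO slope, 18 to 26 members were called lower with another scaling, filter or test or the block (14.6% to 36.5% of all genes). Fewer times gave 27 to 30 (30.2% to 41.8%), and leaving out 1 library gave 21 to 27 (28.2% to 38.7%). TYMS was joined by CCND1 and MCM2, which makes 3 higher, with median-of-ratios scaling and with edgeR. There 23.4% and 22.3% of all genes were called higher. With only 0 and 1 h (8.43% of all genes) and with 0, 1 and 2 h (7.45%), 0 members were called higher. Leaving out 1 library gave 0 to 1 higher (3.24% to 8.31%).

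The 5 differences in slope (2.61% of all genes) became 1 with a pseudocount of 1 (1.21%) and 1 with median-of-ratios scaling (0.764%). With edgeR they became 2 (AURKA and KIF23, 1.81%). They became 19 with only 0 and 3 h (19.9%) and 0 with only 0 and 1 h (0.0218%). No member and no other gene was called lower with no filter, with the replicate block, with 0, 1 and 2 h, or without replicate 2 at 2 h. When 1 library was left out the members called ranged from 0 to 12 (0.00% to 10.6% of all genes). The A5-KO slope changed sign for MCM3 (0.0093 and 0.0060) and UBE2C (0.0078 and 0.0052) with median-of-ratios scaling and edgeR, and for AURKB with only 0 and 1 h (0.00083); the difference in slope did so for PLK1 with only 0 and 1 h (0.11). Per exon length, the ratio of mitotic to replication sums from 0 to 3 h was 2.01, 1.89, 1.73 and 1.84 in WT and 1.87, 1.76, 1.675 and 1.45 in A5-KO. At 2 h the libraries then no longer overlapped, at 1.74 and 1.72 in WT against 1.67 and 1.68 in A5-KO. The cause of these changes was not tested.

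The replicate numbers of the genotypes were not paired by the labels. The correlation of same-numbered deviations was -0.005 in hILOs and 0.134, -0.010, -0.049 and -0.030 in PPs at 0, 1, 2 and 3 h. In PPs at 0 h the block raised the genes called lower from 1.13% to 1.91% and those called higher from 1.57% to 2.62%. Whether the samples at 0 h were paired cannot be told from these values. The block left 0 members called in PPs at 0 h and for the WT slope, and 26 members lower and 1 higher for the A5-KO slope.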
